A study of Homo sapiens with 9 samples.

Results

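The homeobox and paired-box genes that lie outside the HOX clusters were followed as 45 genes out of the 60708 listed in the count files. They were picked by their names, with earlier results of these data known, and comprised 6 DLX, 2 MSX, 7 LHX, 6 IRX, 3 sine oculis-related (*SIX3*, *SIX4*, *SIX5*), 2 EMX, 2 OTX, 2 PITX, 3 MEIS, 3 PBX, 2 EN and 5 PAX genes together with *SHOX2* and *PRRX2*. All 45 symbols were found in the files. These genes do not make up whole families, and further homeobox genes such as *POU3F2*, *CDX2* and *PAX8* are described separately below.

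The cells were labelled MDA-MB-231, an established human triple-negative breast cancer line of the basal, mesenchymal type. Untreated cells grown in DMEM with 10% fetal bovine serum gave 9 RNA-sequencing libraries, of which 3 were labelled WT and 3 each CS16 and CS19, both named *SNAI1*-KO clones. The study describes the clones as made with pooled plasmids for guide RNAs against *SNAI1*, together with Cas9 and repair-template plasmids, and as grown from single cells after selection with puromycin. Each clone was therefore a line derived from 1 cell, whereas no clone of unedited cells treated in the same way was among the libraries, so that the effect of the knockout and the effect of cloning and selection cannot be told apart. The labels did not say whether the 3 libraries of a group came from separate cultures, and p-values then measure only the spread between these libraries, which may be technical. The libraries held 19527195 to 28627777 counted read pairs, and 3 pairs corresponded to 0.0982 to 0.171 CPM, which are counts scaled to the same library total, depending on the library.

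The labels were first checked against marker genes. *SNAI1*, the targeted gene and a zinc-finger repressor, had 16, 38 and 21 counts in the WT libraries, 26, 40 and 49 in the CS16 libraries and 57, 94 and 94 in the CS19 libraries, and was therefore not lower in the libraries labelled *SNAI1*-KO. The counts sum all exons of a gene and cannot show a deletion inside it. For these clones the study reports lower *SNAI1* mRNA at every exon by RT-qPCR and no detectable SNAI1 protein. It also describes deletions in exon 2 and intron 2 seen in the aligned RNA-sequencing reads. These are other measures than the gene counts given here. *CDKN2A*, *CDKN2B* and *MTAP*, neighbouring genes on chromosome 9 that MDA-MB-231 cells are known to lack, were without a count in WT. In the libraries labelled CS16 and CS19 the same genes had 1106 to 1575, 235 to 326 and 2139 to 3137 counts. Of 6 genes chosen as markers of MDA-MB-231, *CD44*, *AXL*, *CAV1*, *EGFR* and *MSN* were called lower in the CS libraries, and *VIM*, with a log2 fold change of -1.52, was not called. *CD44*, a cell surface receptor for hyaluronan, had 12765, 13853 and 11142 counts in WT and 2 counts in all CS libraries together. Whether the libraries labelled CS16 and CS19 hold cells of the same line as the WT libraries was not tested, and in every value below a difference between cell lines cannot be told apart from the knockout, the cloning or the selection. The groups are therefore named by their labels throughout, and higher or lower refers to the labels only. Among the replicates, WT-2 stood apart. Its correlation with WT-1 and WT-3 was 0.952 and 0.948 (Pearson, log2(CPM + 1) across genes), against 0.995 between WT-1 and WT-3 and at least 0.995 within each clone, so results that rest on WT-2 are also given without it.

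Homeobox genes encode transcription factors with a homeodomain, a small DNA-binding fold whose recognition helix lies in the major groove and reads short AT-rich sites. Many of them pattern the body axis, the brain, the limbs and the neural crest of the embryo, and they are usually silent in adult epithelium except for a few. Paired-box genes of the PAX family carry a paired domain as a further DNA-binding fold, with or without a complete homeodomain. The MEIS and PBX proteins belong to the TALE class and mostly act as DNA-binding partners of other homeodomain proteins.

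The families differ at the residue of the recognition helix that lies between an invariant tryptophan-phenylalanine pair and an invariant asparagine, and this residue is known to set much of the preference for the bases beside the core site. The coding sequence around this residue is shown for 1 to 3 genes of each kind, since it is what groups the 45 genes independently of their expression. Each sequence is 30 bases of the coding strand of GRCh38 in the gencode release 44 canonical transcript, 5′ to 3′, with the codon of that residue in capitals.
DLX5: aaaatctggtttCAGaacaaaagatccaag
MSX1: aagatatggttcCAGaaccgccgcgccaag
EN2: aagatttggttcCAGaacaagcgcgccaag
SIX4: agcaactggttcAAGaaccgccggcagcgc
OTX2: caggtatggtttAAGaatcgaagagctaag
PAX3: caggtctggtttAGCaaccgccgtgcaaga
PAX6: caggtatggtttTCTaatcgaagggccaaa
MEIS1: aacaattggtttATTaatgcccggagaaga
PBX3: tccaattggtttGGCaacaaacgaatcagg
IRX1: tccacctggttcGCCaacgcgcgccggcgc
IRX6: tccacctggttcGCCaacgcacgccggcgc
The stretches of *DLX5* (chr7:97021033-97021062, minus strand), *MSX1* (chr4:4862880-4862909, plus), *EN2* (chr7:155462550-155462579, plus), *SIX4* (chr14:60723244-60723273, minus), *PBX3* (chr9:125960687-125960716, plus), *IRX1* (chr5:3599471-3599500, plus) and *IRX6* (chr16:55327752-55327781, plus) each lie in 1 coding exon. Those of *OTX2*, *PAX3*, *PAX6* and *MEIS1* are interrupted by an intron. *DLX5*, *MSX1* and *EN2* carry a glutamine codon, *SIX4* and *OTX2* a lysine codon, *PAX3* and *PAX6* a serine codon, *MEIS1* isoleucine, *PBX3* glycine and both IRX genes alanine. Over all 45 genes, 21 carried glutamine, 7 lysine, 6 alanine and 3 each serine, isoleucine and glycine, while *PAX5* and *PAX9*, whose homeodomain is partial or missing, had no such stretch. The stretch was the same base by base in *IRX1*, *IRX2*, *IRX3*, *IRX4* and *IRX5*, and *IRX6* differed from *IRX1* by G21A, counted from 1 at the 5′ end of the stretch with the base of *IRX1* first. Pairs that match equally well at more than 1 place were removed by the mapping-quality limit of the authors, so stretches of this kind can lose pairs where the identity extends beyond the length shown.

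Many of these genes were close to silent in WT and expressed in both clones, others were expressed in every group or in none. Of the 45 genes, 24 were called in the 6 CS libraries against WT, 21 of them higher and 3 lower, where a call required that the log2 fold change reached 2 or -2 and that the p of the quasi-likelihood test in edgeR, adjusted after Benjamini and Hochberg over all 19631 genes tested (below, edgeR adjusted p), was under 0.05. This fit counted the 6 CS libraries, 3 of each clone, as 6 replicates, although they came from only 2 lines. Over all genes tested 26.9% were called, 12.6% higher and 14.3% lower. The called genes were 53.3% of the 45, with 46.7% higher and 6.7% lower. Shares and counts out of the 45 include 9 genes that were not tested, whereas the shares of all genes cover only genes tested. Without the fold cut-off, 30 of the 45 had an edgeR adjusted p below 0.05, 25 higher and 5 lower, against 63.7% of all genes tested, 31.1% higher and 32.6% lower. The filter on low counts was passed by 36 of the 45, and a gene that passes it only because it is high in 1 group is bound to differ, so that the count is a description of the members. The median log2 fold change of the 36 was 3.10, against -0.004 over all genes tested. By level, 33 of the 45 genes had a mean of at least 1 CPM in CS16 and 33 in CS19, against 15 in WT. In bulk RNA, a change in the number of expressing cells and a change in the RNA per cell cannot be told apart. By the kind of recognition helix shown above, 12 of the 21 genes with glutamine were called higher, 3 of 3 with isoleucine, 2 of 3 with serine, 2 of 7 with lysine, 1 of 6 with alanine and none of the 3 with glycine. Where WT-2 had most of the few WT counts, leaving it out raised the log2 fold change, to 8.10 for *DLX2*, 7.39 for *PAX6*, 4.84 for *EN2*, 3.83 for *MEIS3* and 3.72 for *PITX3*. No WT count of *EMX2*, *OTX2* or *LHX8* was then left.

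**Figure D1:**
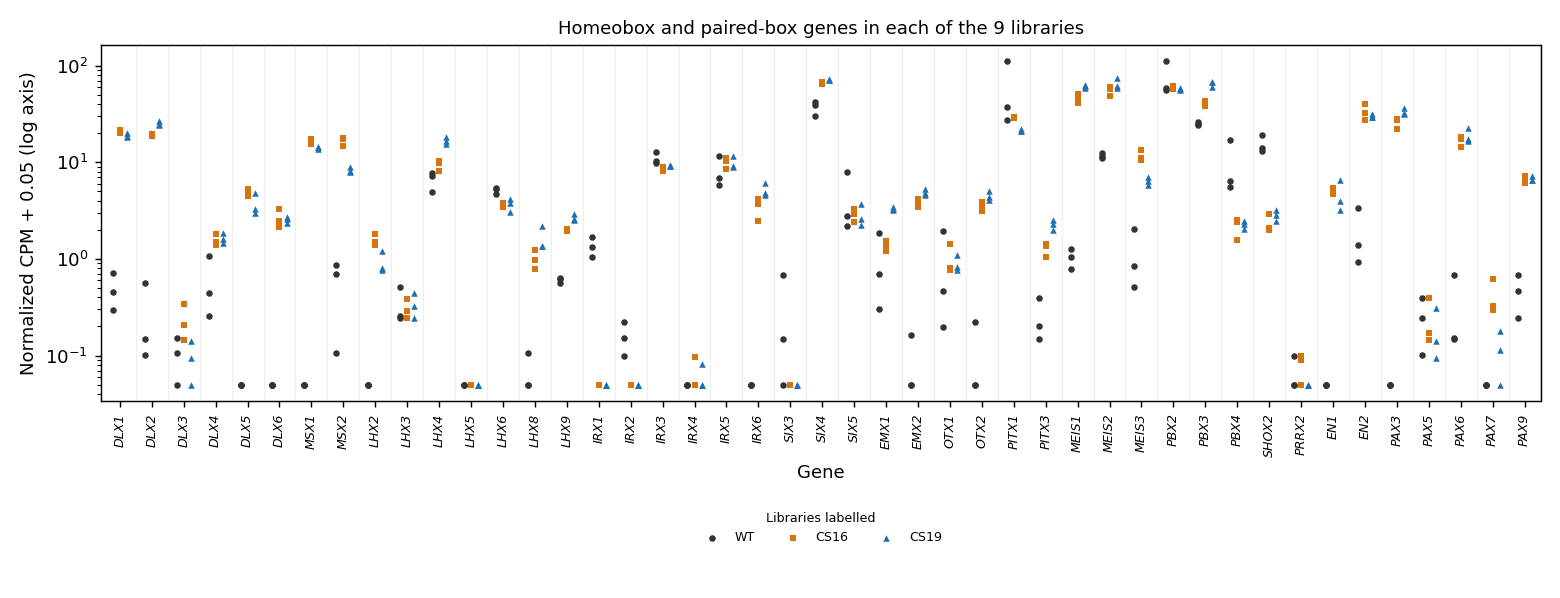
Normalized expression of the 45 genes in each of the 9 libraries, in CPM + 0.05 on a log axis, with 1 point per library (circles WT, squares CS16, triangles CS19). *DLX5*, *DLX6*, *EN1*, *MSX1* and *PAX3* had WT points at the bottom of the axis and CS points above 2 CPM, whereas *PBX2*, *PBX3* and *SIX4* were above 20 CPM in all libraries.

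The DLX genes, related to Drosophila Distal-less, are known for the forebrain interneuron lineage, the pharyngeal arches and bone, and lie in facing pairs. *DLX1*, an interneuron regulator, stood at 0.247, 0.400 and 0.667 CPM in the WT libraries, at 21.4, 19.9 and 20.7 CPM in CS16 and at 18.6, 20.2 and 18.2 CPM in CS19. Its neighbour *DLX2*, which acts in the same lineage and is separated from it by 9760 bases on chromosome 2, stood at 0.0987, 0.514 and 0.0513 CPM in WT, at 18.8, 19.6 and 18.8 CPM in CS16 and at 24.9, 26.8 and 24.3 CPM in CS19. For both genes every CS library lay far above every WT library. The log2 fold change was 5.49 for *DLX1* (SE 0.29, edgeR adjusted p = 1.87e-08). That of *DLX2* was 6.67 (SE 0.48, edgeR adjusted p = 2.51e-07). *DLX5*, a regulator of osteoblasts, had no count in WT, 5.05, 4.39 and 5.21 CPM in CS16 and 2.91, 4.73 and 3.21 CPM in CS19. *DLX6*, 9355 bases from it on chromosome 7, likewise had no count in WT, with 3.23, 2.43 and 2.11 CPM in CS16 and 2.55, 2.64 and 2.32 CPM in CS19. Where the 3 WT libraries had no count, the fold is bounded with 3 counts over the group, which covers counting error only since the pairs carried no molecular identifiers. On that basis *DLX5* was at least 80.2-fold higher and *DLX6* at least 48.1-fold higher in the CS libraries (edgeR adjusted p = 1.19e-06 and 9.82e-07). The pair on chromosome 17 behaved otherwise. *DLX4* rose from a WT mean of 0.543 ± 0.431 CPM (SD, n = 3) to 1.52 ± 0.219 CPM for CS16 and 1.59 ± 0.189 CPM for CS19 (SD, n = 3 each), a log2 fold change of 1.53 that passed the adjusted p but not the fold cut-off (SE 0.41, edgeR adjusted p = 0.00665). Without WT-2, its highest WT library, the value was 2.34 and *DLX4* was called. *DLX3* stayed at or below 6 counts in every library and was not tested.

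The MSX genes are known as targets of BMP signaling in the neural crest, teeth and limb buds. *MSX1* was without a count in WT and stood at 17.3, 17.3 and 15.4 CPM in CS16 and 13.7, 14.5 and 14.4 CPM in CS19. It was thus at least 293-fold higher in the CS libraries (edgeR adjusted p = 1.78e-08), and the lowest CS library was far above the WT libraries. *MSX2* stood at 0.641, 0.0571 and 0.821 CPM in WT, at 17.5, 14.8 and 17.8 CPM in CS16 and at 8.14, 8.97 and 7.89 CPM in CS19. All 3 groups were separate for *MSX2*, with CS16 highest and WT-2 the lowest of the WT libraries. Its log2 fold change was 4.59 (SE 0.58, edgeR adjusted p = 2.87e-05).

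The EN genes mark the boundary of midbrain and hindbrain. *EN1* had no count in WT, 4.71, 4.67 and 5.41 CPM in CS16 and 3.91, 6.46 and 3.17 CPM in CS19, which made it at least 88.9-fold higher (edgeR adjusted p = 1.10e-06). *EN2* was already detected in WT, at 1.33, 3.31 and 0.873 CPM, and reached 32.7, 40.0 and 27.3 CPM in CS16 and 29.7, 29.3 and 31.9 CPM in CS19. The highest WT library, WT-2, remained far below the lowest CS library. The log2 fold change of *EN2* was 4.12 (SE 0.38, edgeR adjusted p = 2.27e-06).

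*EMX2* and *OTX2* pattern the forebrain, *EMX2* in the dorsal telencephalon and the urogenital tract and *OTX2* in the anterior head and retina. *EMX2* had 0, 2 and 0 counts in WT, and its level was 3.92, 3.39 and 4.10 CPM in CS16 and 5.23, 4.81 and 4.58 CPM in CS19. From these few WT counts the ratio of CS to WT was 125 (95% interval 34.4 to 1034), which covers counting error only (edgeR adjusted p = 1.08e-06). *OTX2* had 0, 3 and 0 counts in WT, all of them in WT-2, with 3.58, 3.82 and 3.06 CPM in CS16 and 5.00, 4.08 and 4.29 CPM in CS19. Its ratio of CS to WT was 75.9 (95% interval 25.8 to 369), with an edgeR adjusted p of 4.38e-06. The related *EMX1* and *OTX1* were not called. *EMX1* averaged 0.908 ± 0.819 CPM in WT against 1.30 ± 0.164 CPM for CS16 and 3.25 ± 0.103 CPM for CS19 (SD, n = 3 each), and overlapped between WT and CS16 (log2 fold change 1.35, SE 0.58, edgeR adjusted p = 0.0625). Without WT-2, where it was highest among the WT libraries, the value was 2.32 and *EMX1* was called. *OTX1* averaged 0.814 ± 0.936 CPM in WT against 0.948 ± 0.368 CPM for CS16 and 0.851 ± 0.167 CPM for CS19 (SD, n = 3 each). It spanned the CS values within WT alone, and its log2 fold change of 0.17 moved to 1.66 without WT-2 (edgeR adjusted p = 0.0092) and turned negative without WT-1 or WT-3.

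The PAX genes held the largest lower bound among the 45 genes. *PAX3*, a regulator of neural crest and muscle progenitors, had no count in WT, 556, 466 and 709 counts in CS16 and 698, 843 and 989 counts in CS19. These corresponded to 27.3, 22.2 and 28.2 CPM and 31.7, 36.5 and 32.4 CPM. *PAX3* was therefore at least 572-fold higher in the CS libraries (edgeR adjusted p = 2.20e-08). *PAX6*, the eye and forebrain regulator, stood at 0.0987, 0.628 and 0.103 CPM in WT, at 17.4, 14.3 and 18.1 CPM in CS16 and at 17.5, 22.8 and 16.7 CPM in CS19, without overlap. Its log2 fold change was 6.03 (SE 0.47, edgeR adjusted p = 5.50e-07). Of its exon bases, 26.3% are shared with genes on the opposite strand, chiefly *ELP4*, whose counts ranged from 320 to 795 in WT and from 635 to 913 in the CS libraries. *PAX9*, known from the pharyngeal pouches and teeth, stood at 0.197, 0.628 and 0.411 CPM in WT, at 7.20, 6.06 and 7.04 CPM in CS16 and at 6.45, 7.24 and 6.51 CPM in CS19, also without overlap. It had a log2 fold change of 4.04 (SE 0.32, edgeR adjusted p = 6.27e-07). *PAX9* shares 25.4% of its exon bases with *SLC25A21* on the opposite strand, which went from 5 to 11 counts in WT to 171 to 309 in the CS libraries. *PAX5*, the B cell regulator, had 1 to 6 counts in WT and 1 to 8 in the CS libraries. *PAX7*, a regulator of muscle satellite cells, had none in WT, 5, 12 and 7 in CS16 and 0, 3 and 2 in CS19, and neither was tested.

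The LHX genes encode LIM-homeodomain proteins, which bind the cofactor LDB1 through their LIM domains. *LHX2*, a regulator of cortex and eye field, had no count in WT, 1.76, 1.43 and 1.35 CPM in CS16 and 0.727, 1.17 and 0.753 CPM in CS19. It was at least 22.3-fold higher (edgeR adjusted p = 4.21e-05). *LHX8*, known from cholinergic neurons of the forebrain and from oocytes, had 0, 1 and 0 counts in WT, with 0.735, 1.19 and 0.915 CPM in CS16 and 1.32, 1.30 and 2.13 CPM in CS19. The ratio of CS to WT was 75.3 (95% interval 13.4 to 2992), from a single WT count (edgeR adjusted p = 3.56e-05). *LHX9*, a regulator of gonad development, stood at 0.592, 0.514 and 0.565 CPM in WT, at 2.01, 1.96 and 1.91 CPM in CS16 and at 2.50, 2.90 and 2.55 CPM in CS19. No library of *LHX9* overlapped between the groups, but its log2 fold change of 2.04 (SE 0.27, edgeR adjusted p = 4.71e-05) lay at the cut-off and was 1.98 without WT-2 and 1.96 without CS19-2, both below it. *LHX4*, which acts in the pituitary and in motor neurons, was higher in all CS libraries without a call, at 6.58 ± 1.49 CPM in WT against 9.47 ± 1.16 CPM for CS16 and 16.6 ± 1.43 CPM for CS19 (SD, n = 3 each, log2 fold change 0.99, SE 0.29, edgeR adjusted p = 0.0110). Of its exon bases 30.7% are shared with *ACBD6*. *LHX6*, an interneuron regulator, was slightly lower, at 5.11 ± 0.413 CPM in WT against 3.62 ± 0.161 CPM for CS16 and 3.65 ± 0.585 CPM for CS19 (SD, n = 3 each), with a log2 fold change of -0.49 (SE 0.18, edgeR adjusted p = 0.0349). *LHX3* had 4 to 9 counts in every library, and *LHX5* had none in any of the 9, which allows up to 0.171 CPM in WT-2 and less in the other libraries.

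All MEIS genes were called higher, and no PBX gene was called higher. *MEIS1*, a partner of HOX proteins in blood and limb progenitors, stood at 0.987, 0.742 and 1.23 CPM in WT, at 47.9, 41.6 and 50.6 CPM in CS16 and at 58.3, 63.6 and 62.1 CPM in CS19. *MEIS2*, active in the striatum and the neural crest, stood at 12.5, 11.7 and 11.0 CPM in WT, at 60.7, 49.0 and 57.9 CPM in CS16 and at 58.5, 75.5 and 61.2 CPM in CS19. *MEIS3* stood at 0.789, 2.00 and 0.462 CPM in WT, at 10.5, 11.0 and 13.4 CPM in CS16 and at 7.09, 6.33 and 5.83 CPM in CS19. In each case the WT and CS libraries were apart. The log2 fold change was 5.76 for *MEIS1* (SE 0.26, edgeR adjusted p = 5.86e-09). It was 2.37 for *MEIS2* (SE 0.17, edgeR adjusted p = 2.69e-07) and 3.07 for *MEIS3* (SE 0.47, edgeR adjusted p = 0.000145). *PBX3*, which pairs with MEIS and HOX proteins on DNA, was higher by 1.08 on the log2 scale without a call, at 25.2 ± 0.898 CPM in WT against 40.8 ± 2.44 CPM for CS16 and 65.4 ± 4.28 CPM for CS19 (SD, n = 3 each, SE 0.22, edgeR adjusted p = 0.00127). *PBX2* averaged 75.6 ± 32.1 CPM in WT against 59.0 ± 2.55 CPM for CS16 and 57.5 ± 0.939 CPM for CS19 (SD, n = 3 each). Its WT mean was raised by WT-2, and the log2 fold change of -0.37 (SE 0.20, edgeR adjusted p = 0.128) was 0.026 without that library. *PBX4*, the remaining PBX gene listed here, was lower. It stood at 6.41, 17.0 and 5.49 CPM in WT, at 2.50, 1.53 and 2.35 CPM in CS16 and at 2.41, 2.25 and 2.00 CPM in CS19, with every CS library below every WT library. The log2 fold change was -2.14 (SE 0.33, edgeR adjusted p = 0.000143), and it was -1.46 without WT-2, which is below the cut-off although the edgeR adjusted p was then 8.22e-05.

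**Figure D2:**
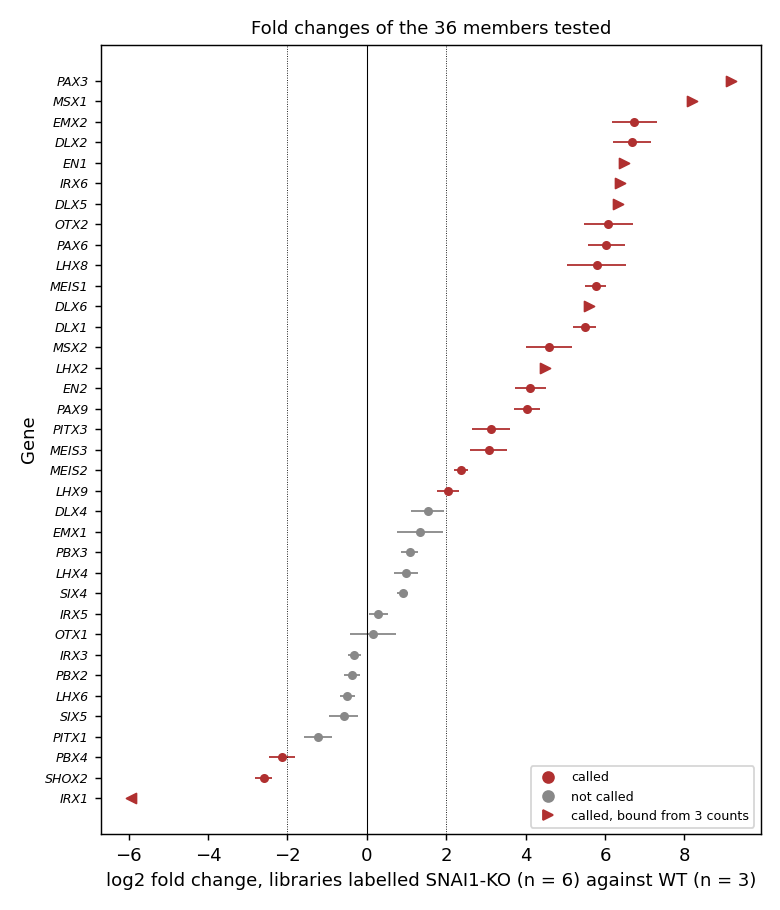
Log2 fold change of the 36 genes that passed the filter, libraries labelled *SNAI1*-KO (n = 6) against WT (n = 3), with bars of 1 SE. Triangles are bounds from 3 counts where a group had none, and dotted lines mark the cut-off of 2 in either direction, which 21 genes exceeded upward and *PBX4*, *SHOX2* and *IRX1* downward.

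Called members of the IRX family moved in opposite directions. They lie in clusters on chromosomes 5 and 16 and are known for patterning of the neural plate, heart and limbs. *IRX1*, on chromosome 5, had 20, 29 and 25 counts in WT and none in any CS library, which placed it at least 61.2-fold lower (edgeR adjusted p = 5.77e-05). Its WT level was 0.987, 1.66 and 1.28 CPM. *IRX2*, 844154 bases away, had 1, 3 and 2 counts in WT and also none in the CS libraries, and *IRX4* had 1 count in each of CS16-2 and CS19-3 alone. On chromosome 16 *IRX6* had no count in WT, 3.68, 2.43 and 4.18 CPM in CS16 and 4.73, 6.11 and 4.55 CPM in CS19, at least 82.6-fold higher (edgeR adjusted p = 2.57e-06). Its neighbours in the cluster were expressed in every library. *IRX3* averaged 11.0 ± 1.60 CPM in WT against 8.55 ± 0.349 CPM for CS16 and 9.19 ± 0.110 CPM for CS19 (SD, n = 3 each). *IRX5*, 389717 bases from *IRX6*, averaged 8.10 ± 3.12 CPM in WT against 9.90 ± 1.35 CPM for CS16 and 9.93 ± 1.50 CPM for CS19 (SD, n = 3 each). All 6 CS libraries of *IRX3* lay below its WT libraries and *IRX5* overlapped, but neither passed the adjusted p, with log2 fold changes of -0.31 (SE 0.16, edgeR adjusted p = 0.0991) and 0.29 (SE 0.23, edgeR adjusted p = 0.291). For *IRX5* this rested on WT-2, its highest WT library, and without it every CS library lay above WT (log2 fold change 0.64, edgeR adjusted p = 0.00644). Thus 2 of the 6 IRX genes were called, in opposite directions.

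The genes *SIX3*, *SIX4* and *SIX5*, related to Drosophila sine oculis, act with EYA and DACH proteins in eye, muscle and placode development. *SIX4* was expressed throughout and rose by 0.90 on the log2 scale without a call, from 37.0 ± 6.07 CPM in WT to 66.7 ± 1.76 CPM for CS16 and 71.7 ± 0.917 CPM for CS19 (SD, n = 3 each, SE 0.14, edgeR adjusted p = 0.000151). *SIX5* averaged 4.23 ± 3.12 CPM in WT against 2.81 ± 0.463 CPM for CS16 and 2.81 ± 0.776 CPM for CS19 (SD, n = 3 each). It overlapped between the groups, 59.6% of its exon bases are shared with genes on the opposite strand, and its log2 fold change of -0.58 (SE 0.37, edgeR adjusted p = 0.188) was 0.20 without WT-2. *SIX3*, the forebrain and eye gene, had 2, 11 and 0 counts in WT and none in the CS libraries, and was not tested.

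*PITX3*, a regulator of midbrain dopaminergic neurons and the lens, stood at 0.0987, 0.343 and 0.154 CPM in WT, at 1.37, 1.00 and 1.31 CPM in CS16 and at 2.27, 2.47 and 1.96 CPM in CS19. The lowest CS library lay above the highest WT library, and the log2 fold change was 3.12 (SE 0.48, edgeR adjusted p = 0.000150). *PITX1*, the hindlimb and pituitary gene, had about the same mean level per length in WT as *PBX2*, with WT-2 far above the other WT libraries. It averaged 59.2 ± 46.2 CPM in WT, 29.3 ± 0.373 CPM for CS16 and 21.5 ± 0.649 CPM for CS19 (SD, n = 3 each), which gave a log2 fold change of -1.22 (SE 0.35, edgeR adjusted p = 0.00996). This rested on WT-2, since the value without that library was -0.37 with an edgeR adjusted p of 0.092. *SHOX2*, known from the limb and the sinoatrial node, was called lower. It stood at 13.1, 19.1 and 14.2 CPM in WT, at 2.89, 2.05 and 1.95 CPM in CS16 and at 3.14, 2.43 and 2.81 CPM in CS19, with no overlap and a log2 fold change of -2.60 (SE 0.21, edgeR adjusted p = 6.59e-07). *PRRX2*, a gene of embryonic mesenchyme, had at most 1 count in any library.

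To compare genes with each other, counts were divided by the exon length deposited with them and scaled to the same sum in every library, which gives each gene's share of transcripts (TPM). In WT the highest TPM belonged to *PITX1* with 56.8 ± 48.1, *PBX2* with 56.7 ± 28.2, *SIX4* with 17.5 ± 3.35 and *PBX3* with 16.6 ± 2.46 (SD, n = 3). The order of the first pair rested on WT-2, and their spread was larger than the distance between them. In CS16 the order was *PBX2* with 42.0 ± 3.70, *SIX4* with 30.8 ± 4.63, *EN2* with 30.4 ± 4.73, *PITX1* with 26.6 ± 3.41, *PBX3* with 26.0 ± 4.26 and *MSX1* with 24.5 ± 3.62 TPM (SD, n = 3). From *SIX4* down to *MSX1* each gene lay within the SD of its neighbour. In CS19 it was *PBX3* with 40.5 ± 4.48, *PBX2* with 40.0 ± 4.28, *SIX4* with 32.2 ± 2.80, *EN2* with 27.0 ± 1.48 and *DLX2* with 26.0 ± 3.79 TPM (SD, n = 3). *EN2*, with a mean of 1.81 TPM in WT, thus came directly after *SIX4* in both clones. Summed over the 6 DLX genes, TPM was 1.19 ± 0.724 in WT, 50.9 ± 8.01 in CS16 and 52.2 ± 8.61 in CS19 (SD, n = 3 each). The 5 PAX genes summed to 0.348 ± 0.226, 16.8 ± 3.68 and 19.4 ± 3.40 TPM, and the 3 MEIS genes, led in WT by *MEIS2* with 3.51 ± 0.628, to 4.50 ± 1.02, 36.8 ± 7.27 and 39.2 ± 6.38 TPM in the same order. The summed TPM of the 6 IRX genes differed little between the groups, at 23.7 ± 7.81 in WT, 23.8 ± 5.46 in CS16 and 25.5 ± 4.79 in CS19, as it consisted mainly of *IRX3* and *IRX5*.

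**Figure D3:**
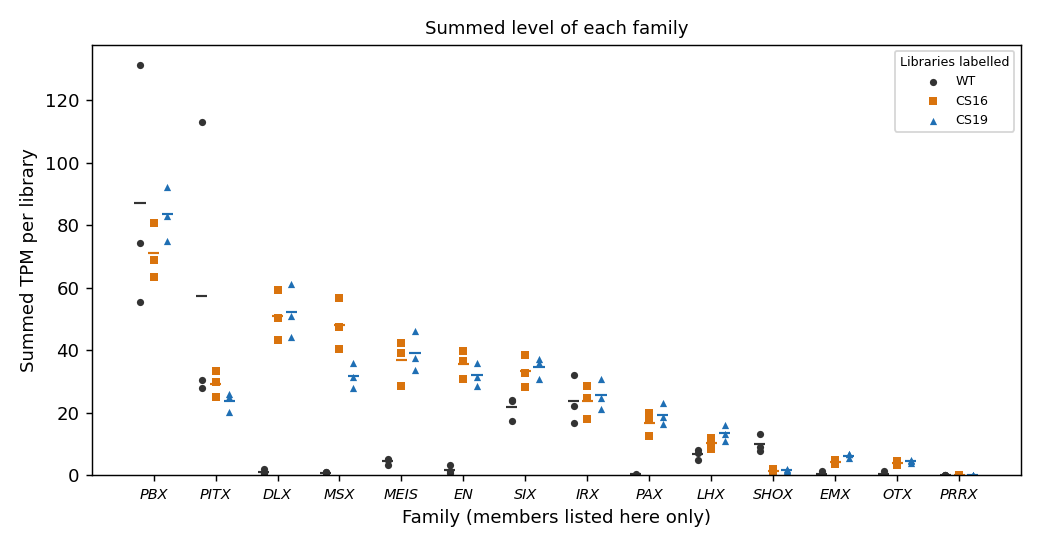
Summed TPM of the members of each family in every library (points) with the group mean (short lines), for WT, CS16 and CS19. The DLX, MSX, MEIS, EN and PAX sums were separate between WT and both clones, whereas the IRX sums overlapped and the highest PBX and PITX points were those of WT-2.

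CS16 and CS19 were also set against WT separately. For CS16 23 members were called, 20 higher and 3 lower, where 27.1% of the 18611 genes tested were called, 11.8% higher and 15.3% lower. For CS19 there were 24, 21 higher and 3 lower, where 26.4% of 18935 were called, 12% higher and 14.4% lower. An edgeR adjusted p below 0.05 was reached by 27 members in CS16, against 55.6% of all genes tested, and by 30 in CS19, against 52.9%. Both fits used the same WT libraries, so they are not independent of each other. The 23 members of CS16 were all among the 24 of CS19 and had the same direction, and *LHX9* was the additional one, with a log2 fold change of 1.83 in CS16 and 2.28 in CS19. *PAX3*, for instance, was at least 497-fold higher in CS16 and at least 639-fold higher in CS19, *MSX1* at least 317-fold and 272-fold, and *EN1* at least 94.7-fold and 83.8-fold.

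The clones were compared directly, without the WT libraries. Of the 35 members tested none was called by edgeR or by DESeq2, where edgeR called 1.13% of 17538 genes, 0.633% higher in CS16 and 0.496% lower. An unadjusted edgeR p below 0.05 was found for 19 of the 35 members. The share of all genes at that unadjusted p was not counted, so this number has no background beside it. Disregarding the fold cut-off, 10 members had an edgeR adjusted p below 0.05, 3 higher and 7 lower in CS16, which was the case for 27.4% of all genes tested, 14.7% higher and 12.7% lower. In each of these 10 the libraries of the clones did not overlap. *MSX2*, *MEIS3* and *PITX1* were higher in CS16, with log2 fold changes of 1.00 (SE 0.11, edgeR adjusted p = 1.73e-05), 0.86 (SE 0.13, edgeR adjusted p = 0.000301) and 0.44 (SE 0.08, edgeR adjusted p = 0.000960). Higher in CS19 were *EMX1* and *PITX3*, with log2 fold changes of CS16 against CS19 of -1.33 (SE 0.20, edgeR adjusted p = 0.000297) and -0.86 (SE 0.24, edgeR adjusted p = 0.0158). *LHX4* followed with -0.81 (SE 0.11, edgeR adjusted p = 0.000157) and *PBX3* with -0.69 (SE 0.08, edgeR adjusted p = 1.94e-05). Smaller differences in this direction were those of *DLX2* with -0.41 (SE 0.08, edgeR adjusted p = 0.00196), *MEIS1* with -0.40 (SE 0.08, edgeR adjusted p = 0.00272) and *PAX3* with -0.38 (SE 0.10, edgeR adjusted p = 0.0128). The remaining 25 members did not pass the adjusted p. Among them *DLX6* differed by 0.04 on the log2 scale (SE 0.21), and the sign of differences this small changed when single libraries were left out.

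**Figure D4:**
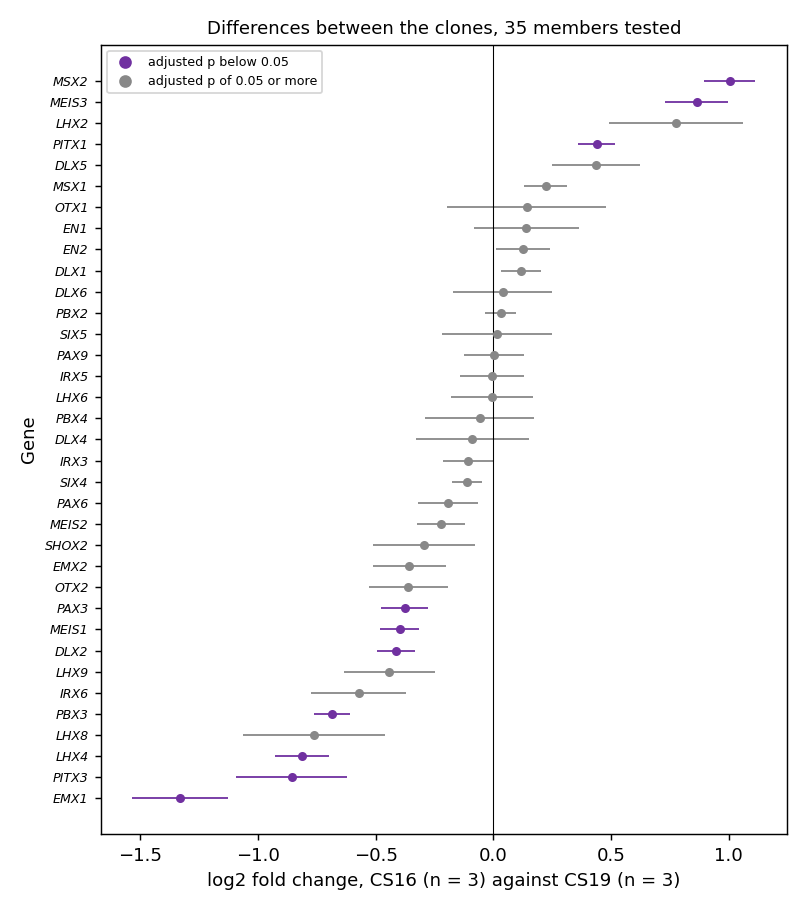
Log2 fold change of CS16 (n = 3) against CS19 (n = 3) for the 35 genes tested, with bars of 1 SE and the 10 genes with an edgeR adjusted p below 0.05 in purple. All values lay between those of *EMX1* at -1.33 and *MSX2* at 1.00, within the cut-off of 2.

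Homeodomain proteins act with partners, which were followed as lists that were also drawn up with earlier results known. The counts of these short lists stand beside 12.6% higher and 14.3% lower calls among all genes. Among 6 further TALE genes and cofactors, 1 was called higher and none lower in the CS libraries. This was *PKNOX2*, a MEIS-related gene, which stood at 0.148, 0.400 and 0 CPM in WT and at 10.9 to 14.0 CPM in the CS libraries (log2 fold change 6.09, SE 0.50, edgeR adjusted p = 8.69e-07) with a value of 7.26 without WT-2. Without that library *TGIF1*, a TALE repressor, was called lower as well (log2 fold change -2.09). Of 10 cofactors and inhibitors of LIM-homeodomain proteins, 8 of them tested, 1 was called higher and none lower. It was *LMO1*, which binds the LIM cofactor LDB1 and which did not pass the filter on low counts when either clone alone was set against WT, at 0 to 2 counts in WT and 0 to 29 in the CS libraries, with a ratio of 9.67 (95% interval 3.18 to 48.0) and an edgeR adjusted p of 0.0441, and it overlapped between the groups and lost its call without CS16-1, CS16-2, CS19-1, CS19-2 or any WT library.

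The EYA and DACH genes, partners of the sine oculis-related proteins, were called higher in 5 of 6 cases and lower in none, with *EYA3* as the exception at a log2 fold change of 1.17 (SE 0.14, edgeR adjusted p = 1.61e-05). *EYA1*, *EYA2* and *EYA4* encode transcriptional coactivators with phosphatase activity. *EYA2* stood at 0.0987, 0 and 0.103 CPM in WT, at 7.11, 5.96 and 7.68 CPM in CS16 and at 13.5, 14.9 and 13.6 CPM in CS19. The log2 fold changes were 3.58 for *EYA1* (SE 0.23, edgeR adjusted p = 1.23e-07), 7.12 for *EYA2* (SE 0.62, edgeR adjusted p = 1.32e-06) and 2.54 for *EYA4* (SE 0.26, edgeR adjusted p = 5.80e-06). *DACH1*, a corepressor, stood at 0.493, 0.742 and 0.359 CPM in WT and at 34.8 to 48.1 CPM in the CS libraries (log2 fold change 6.24, SE 0.27, edgeR adjusted p = 4.99e-09). Of the 6 Groucho corepressors of the TLE family, which many homeodomain proteins recruit, 2 were called higher and none lower. *TLE4* had no count in WT and 3466 to 5472 counts in the CS libraries, at least 3366-fold higher (edgeR adjusted p = 8.24e-10). *TLE2* rose by 3.54 on the log2 scale (SE 0.29, edgeR adjusted p = 8.57e-07), and *TLE6* was also called without WT-2 (log2 fold change 2.40).

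**Figure D5:**
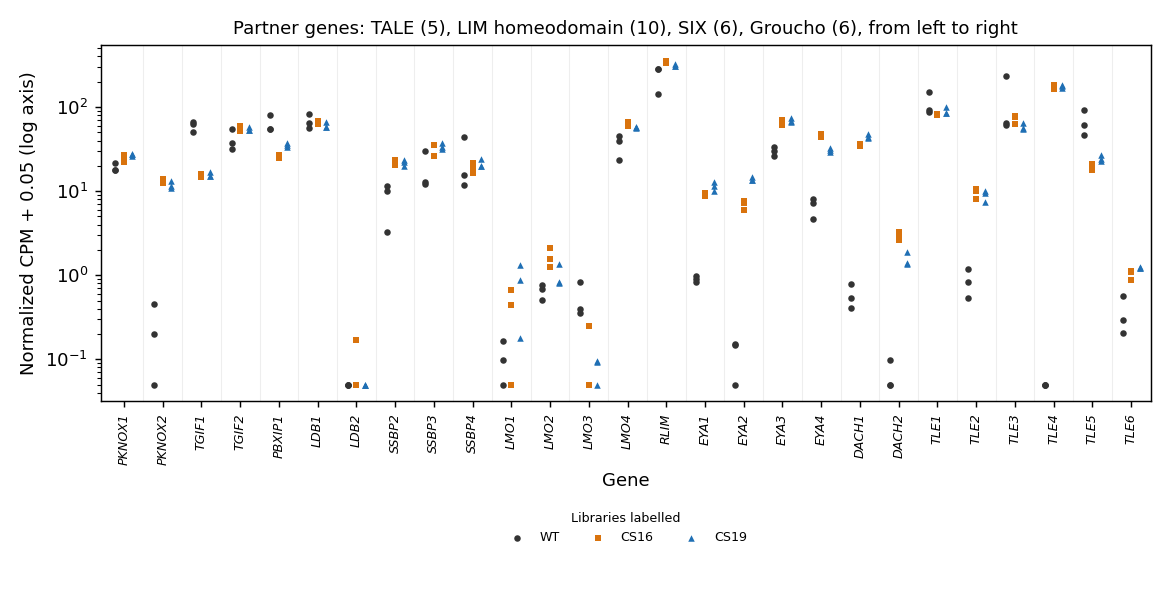
Normalized expression of 27 partner genes in each of the 9 libraries, in CPM + 0.05 on a log axis, with 1 point per library (circles WT, squares CS16, triangles CS19). *PKNOX2*, *EYA2*, *DACH1* and *TLE4* had WT points below 1 CPM and CS points above 5 CPM, while *LDB1* and *TLE1* were at similar levels in all groups.

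A further 142 homeobox genes were measured beside the 45. Of these 41 were called higher (28.9%) and 4 lower (2.8%), with a median log2 fold change of 2.19 over the 81 that passed the filter. Both shares are of all 142, including the genes that were not tested. Among the higher genes with the smallest adjusted p were *POU3F2*, *CDX2* and *TSHZ2*. *POU3F2*, a regulator of neurons and melanocytes, stood at 0.345, 0.114 and 0.257 CPM in WT and 29.9 to 33.8 CPM in the CS libraries (log2 fold change 7.01, SE 0.27, edgeR adjusted p = 2.21e-09). *CDX2*, the intestinal regulator, had 1, 0 and 2 counts in WT and 475 to 695 in the CS libraries, a ratio of 473 (95% interval 162 to 2294) with an edgeR adjusted p of 5.97e-09. Its log2 fold change was 8.75, and 9.63 without WT-3, which held most of its WT counts. *TSHZ2*, a zinc-finger homeobox gene, had 0, 1 and 1 counts in WT and 207 to 309 in the CS libraries, a ratio of 316 (95% interval 87.2 to 2609) with an edgeR adjusted p of 1.05e-08. The genes called lower included *PAX8*, *POU2F2* and *VSX1*. *PAX8*, a regulator of thyroid and kidney, had 244, 452 and 202 counts in WT and 2 counts in all CS libraries together (edgeR adjusted p = 4.62e-08). *POU2F2*, a B cell factor, fell by 5.11 on the log2 scale (SE 0.67, edgeR adjusted p = 4.17e-05), with a value of -4.07 without WT-2 and -5.90 without CS16-3. *VSX1*, a retinal gene, had 18, 14 and 19 counts in WT and none in the CS libraries, at least 42.2-fold lower (edgeR adjusted p = 7.88e-05).

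Since many of the 45 genes are known from embryonic lineages, markers of those lineages were measured in the same libraries. Of 10 neuronal genes, 2 passed the filter, none was called higher and 1 lower. *TUBB3*, a neuronal tubulin, fell by 3.47 on the log2 scale (SE 0.46, edgeR adjusted p = 4.79e-05), and *DCX*, *STMN2*, *ELAVL4* and *SLC17A6* had at most 4 counts in any library. *GAD2*, an enzyme of GABA synthesis that was not tested, had no count in WT, 3, 3 and 9 counts in CS16 and 5, 10 and 17 in CS19, at least 6.31-fold higher. The most abundant neuronal gene was *GAD1*, at 6.02, 5.37 and 5.03 CPM in WT, at 5.59, 4.63 and 5.45 CPM in CS16 and at 18.4, 17.0 and 17.8 CPM in CS19, so that the summed level of the list was 8.68, 10.5 and 7.34 CPM in WT and 6.13, 5.30 and 6.09 CPM in CS16 against 19.4, 17.9 and 18.8 CPM in CS19. Both neural progenitor genes were called, in opposite directions. *SOX2*, a regulator of neural stem cells, rose by 5.27 (SE 0.33, edgeR adjusted p = 9.11e-08), while *NES*, an intermediate filament of such cells, fell by 4.09 on the log2 scale (SE 0.21, edgeR adjusted p = 1.79e-08), and their sum went from 63.4, 86.3 and 61.3 CPM in WT to 16.9 to 20.5 CPM in the CS libraries. Of 7 neural crest and melanocyte genes, 6 of them tested, *FOXD3* and *DCT* were called higher and none lower. *FOXD3*, a neural crest regulator, rose by 3.57 (SE 0.50, edgeR adjusted p = 6.76e-05), and *DCT*, a melanin enzyme, rose by 2.38 (SE 0.57, edgeR adjusted p = 0.00337), but lost its call without WT-1 at a log2 fold change of 1.96 and stood at 3.78 without WT-2. *TYR* was at 0 in every library, *SOX10* stood at 0.592, 1.54 and 0.770 CPM in WT and 0.143 to 1.14 CPM in the CS libraries, and *MITF*, the most abundant of the list, stood at 39.3, 26.4 and 41.2 CPM in WT and 17.5 to 24.1 CPM in the CS libraries. Summed over the list, the level was 42.3, 31.5 and 44.2 CPM in WT and 24.9 to 36.3 CPM in the CS libraries.

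Most defining genes of the other lineages were near 0. Of 6 B cell genes 2 passed the filter, and both were called higher and none lower. *EBF1*, an early B cell factor, stood at 0.491 to 2.98 CPM in the CS libraries (log2 fold change 4.43, SE 0.87, edgeR adjusted p = 0.000876), with *MS4A1* at 0 and *CD79B* at 1 count in all. Neither the 5 skeletal muscle genes, nor the 4 lens, 6 pituitary and 4 dopaminergic neuron genes included a call by edgeR or DESeq2 in the 6 CS libraries against WT, while 1 muscle, 1 lens and 1 dopaminergic gene had an unadjusted p below 0.05. Only 1 gene each of muscle (*ACTA1*), lens (*MIP*) and dopaminergic neurons (*NR4A2*) and none of the pituitary passed the filter, and *GH1* and *PRL* were at 0 in every library. In CS16 alone against WT *ACTA1*, a muscle actin with 14 to 22 counts there and 2 to 5 in WT, was called higher (log2 fold change 2.08, SE 0.45, edgeR adjusted p = 0.00617), and in all CS libraries it was called without WT-2 (2.12). *MIP* was called without WT-3 (2.66), and *CGA* passed the filter and was called when any 1 of the WT libraries was left out. In the CS libraries the sums reached at most 1.35 CPM for muscle, 1.23 CPM for lens, 0.994 CPM for pituitary, where *CGA* was the most abundant, and 2.23 CPM for dopaminergic neurons, against at most 0.343, 0.411, 0 and 3.60 CPM in WT. *MYOD1* had at most 4 counts and *MYF5* 1 count in any library. Of 6 cartilage and bone genes, 4 of them tested, 2 were called higher and 2 lower. *ACAN* and *COL2A1*, cartilage matrix genes, were higher and stayed at or below 45 counts, whereas *RUNX2* and *SOX9*, the regulators of bone and cartilage, fell by 4.54 and 3.85 on the log2 scale (edgeR adjusted p = 1.79e-08 and 2.76e-06). Without WT-2 the value of *SOX9* was -3.02, and *COL2A1* did not pass the filter when any 1 of the CS19 libraries was left out. This list, led by *SOX9*, summed to 120, 285 and 99.3 CPM in WT and 10.4 to 15.0 CPM in the CS libraries.

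Of 8 mammary luminal genes, 6 of them tested, 4 were called lower and 1 higher. *KRT8*, *KRT18*, *EPCAM* and *GATA3* fell by 8.32, 3.25, 4.59 and 2.89 on the log2 scale (edgeR adjusted p = 9.88e-10, 2.41e-08, 3.97e-07 and 6.46e-05). Without WT-2 the log2 fold change of *GATA3* was -1.95, and the call was lost. *CDH1*, the gene of E-cadherin, was higher in all 6 CS libraries than in any WT library without a call. Its log2 fold change was 1.38 (SE 0.26, edgeR adjusted p = 0.000577). *FOXA1*, a pioneer factor of the luminal lineage, had 0, 0 and 2 counts in WT, 63, 86 and 72 in CS16 and 336, 419 and 494 in CS19 (edgeR adjusted p = 0.000138). The summed level of the luminal list, whose most abundant gene over all libraries was *KRT8*, was 1150, 1524 and 1307 CPM in WT and 60.1 to 102.8 CPM in the CS libraries. The part of other cells in the values of the 45 genes was not tested.

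Several members are overlapped or accompanied by genes on the opposite strand, and the counting by the authors did not use strand. Of the 45 genes 27 shared no exon base with another gene, 18 shared some and 9 shared over 10%. The counts of opposite-strand genes differed from member to member. *EMX2OS*, beside *EMX2*, had no count in WT and 85 to 149 in the CS libraries, *DLX6-AS1* none in WT and 106 to 156, *LHX2-AS1* none and 11 to 22, and *PAUPAR*, beside *PAX6*, none and 16 to 27. *OTX2-AS1*, beside *OTX2*, had no count in any library, and the opposite-strand genes of *LHX8* had at most 1. *PITX1-AS1*, beside *PITX1*, which was not called, had 74 to 92 counts in WT and 22 to 42 in the CS libraries. For bases that both strands share, pairs of a member and of its opposite gene cannot be told apart.

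SNAI1 is known to bind the E-box CAGGTG, read as CACCTG on the other strand, so the promoters of the 45 genes were searched for these letters. The RefSeq promoters of GRCh38.p14, 250 bases before to 50 after each start, covered 34 of the 45 genes. The letters were found in 5 of these 34 (14.7%), and in 3 of the 18 called higher (16.7%), while 24.1% of all 27305 genes with a promoter held them. All windows of the 3 genes called higher, of which *DLX2* had 2, are shown on the strand of the gene with the E-box in capitals.
DLX2: gcagtctgtttgCACCTGgggccgctgcag
DLX2: ctcggggccgctCACCTGctcccgcctccc
PAX6: tggtttgatttgCAGGTGtcatcaataaac
PAX9: tatttagtcaccCAGGTGgggagctagcct
They lie at chr2:172103061-172103090 and chr2:172102854-172102883 (minus strand), chr11:31800842-31800871 (minus) and chr14:36661690-36661719 (plus). The homeodomain core TAATTA, which reads the same on both strands, was present in 2 of the 34 (5.9%) and in 5.9% of all genes, and both holders were called higher.
EMX2: tgatccccgcacTAATTAggctcatgaact
MSX2: tgactgctcctgTAATTAactcctaattta
These windows lie at chr10:117542704-117542733 (plus) and chr5:174724373-174724402 (plus). A match is a description of the sequence, and its absence says only that these letters are not in the window searched.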

How the data were processed

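Total RNA of 9 libraries was sequenced in pairs after ribosomal RNA removal with a stranded kit. Per the study's methods and the file headers, the authors used Trimmomatic 0.36 for trimming, STAR 2.7.2b for alignment to GRCh38 and featureCounts of Subread 2.0.0 for counting pairs per gene (gencode 38 exons, both mates mapped, mapping quality of at least 30, chimeric pairs left out, strand not used). The deposited files hold raw counts and, as another column, the exon length of each gene in bases that the authors' counting gave, which served only for TPM. Of the 60708 gene IDs, 99.6% matched a symbol, and 1 symbol of the lists (*HOMEZ*) did not.

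Counts were filtered (filterByExpr, minimum count 10), scaled by TMM and tested with edgeR 4.0.16 in R 4.3.3, by quasi-likelihood with Benjamini-Hochberg adjustment over all genes tested. Each of 4 comparisons was fitted on its own libraries: both clones together, CS16 and CS19 against WT, and CS16 against CS19. The SE was derived from the log2 fold change and the F statistic. Groups came from the labels. With 3 libraries a group, p-values measure only the spread between these libraries. On data simulated for each comparison, 200 of 200 genes with a log2 change of 3 were recovered by edgeR and by DESeq2 1.42.0 without a false call. The simulated counts had the same dispersion for every gene, only genes with a mean above 1 CPM were changed, and no library stood apart as WT-2 did. Recovery of genes near 0 in a group, or with such a library, was therefore not tested. Alternatives were DESeq2, other scalings (RLE, upper quartile), no filter, no fold cut-off, a replicate block and leaving out each library.

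Every called member is described. Members that were not called are named with their means where these reached 1 CPM in any group. The others are given by counts, except *OTX1*, which is given by its means although these were below 1 CPM. From each further list up to 4 genes per direction with the smallest adjusted p are named, except that some genes are not reported here, and other genes of these lists (such as *EYA3* or defining markers at 0) were named after their values were seen. The 45 members and all lists (other homeobox genes, TALE partners, LIM cofactors, EYA and DACH genes, Groucho corepressors, MDA-MB-231 markers, chromosome 9 genes, and markers of mammary luminal, neuronal, neural progenitor, neural crest and melanocyte, muscle, B cell, lens, pituitary, cartilage and bone, and dopaminergic cells) were chosen with earlier results of these data known.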

Additional observations from a re-analysis of the deposited data

Results flagged for a closer look

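*PBX2* in CS16-2 lay apart from the other 5 CS libraries, with 0.639 of the whole range of the 6 between it and its nearest neighbour. This was 1 of 34 such groups examined. Chance flags about 1 in 20 of such groups where all 6 values come from 1 normal population. These groups joined libraries of both clones, so that rate need not hold for them.

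Between the clones, 10 members differed by an edgeR adjusted p below 0.05, all by a log2 fold change under 2. The same adjusted p was reached by 27.4% of all genes tested. The log2 fold changes of CS16 against CS19 were 1.00 for *MSX2*, 0.86 for *MEIS3* and 0.44 for *PITX1*, which were higher in 3 of 3 CS16 libraries than in any CS19 library. They were -1.33 for *EMX1*, -0.86 for *PITX3*, -0.81 for *LHX4*, -0.69 for *PBX3*, -0.41 for *DLX2*, -0.40 for *MEIS1* and -0.38 for *PAX3*, which were higher in 3 of 3 CS19 libraries. The culture or handling of each clone and the clone itself cannot be told apart.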

How the results depend on the processing

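The members called for both clones against WT numbered 24 with DESeq2 and 23 to 24 when single libraries were left out, against 24 by edgeR. For CS16 the range was 22 to 23, for CS19 23 to 25, and for CS16 against CS19 0 throughout. Among all genes, leaving out libraries gave 5165 to 5963 calls for both clones, 5176 to 5823 for CS16, 5167 to 5743 for CS19 and 224 to 258 between the clones. Without the filter on low counts 8662 genes were called for both clones, 7513 for CS19 and 352 between the clones, 1 of them a member (*PAX7*). *IRX2* and *SIX3* were then called lower and *PAX7* higher against WT. Without the fold cut-off the counts were 12506, 10342, 10014 and 4814, with 10 members between the clones. WT-2 carried most changes: without it *DLX4* and *EMX1* gained a call and *LHX9* and *PBX4* lost theirs (1.98 and -1.46). Called in each clone alone, *PBX4* lost that call without WT-2 (-1.48 in CS16, -1.41 in CS19), without CS16-2 (-1.92), without CS19-3 (-1.97) and, for CS19, without the filter (-1.98). Some small changes that were never called reversed when a library was left out. For both clones against WT, *OTX1* ranged from -0.34 to 1.66, *SIX5* from -0.88 to 0.20 and *PBX2* from -0.53 to 0.026. For CS16 they ranged from -0.24 to 1.74, -0.85 to 0.21 and -0.49 to 0.047, and for CS19 from -0.40 to 1.61, -0.85 to 0.21 and -0.53 to 0.031. For CS16 against CS19, *LHX6* ranged from -0.13 to 0.11 (0.003 with DESeq2, 0.005 with RLE scaling), *IRX5* from -0.086 to 0.127 (0.004 with both), *SIX5* from -0.14 to 0.26 (-0.014 with upper-quartile scaling), *PAX9* from -0.039 to 0.083 (-0.023 with upper-quartile scaling), *DLX6* from -0.15 to 0.18, *OTX1* from -0.21 to 0.31, *PBX4* from -0.18 to 0.13, *EN2* from -0.018 to 0.257, *DLX4* from -0.21 to 0.025 and *EN1* from -0.068 to 0.492. The replicate numbers did not pair the libraries, since correlations of same-numbered libraries ran from -0.39 to 0.33. With the replicate block 24, 22, 24 and 0 members and 5220, 4943, 4921 and 201 genes were called, for both clones, CS16, CS19 and CS16 against CS19. Under the block *PBX4* lost its call in CS16 (-1.95) and CS19 (-1.89), and *EMX1* gained one in CS19 (2.14). At the depth of these libraries, genes at 0 could hold up to 0.171 CPM in WT-2 and less in the others.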
